A study of Rattus norvegicus with 4 samples.

Results

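The neurotrophin and GDNF (glial cell line-derived neurotrophic factor) systems were described here through 9 genes, Ngfr, Sort1, Ntrk2, Ntrk3, Bdnf, Gdnf, Gfra1, Gfra2 and Ret, of 14217 genes that the arrays measured under a single symbol. They were chosen by name, as the probe sets whose annotated symbol is exactly one of the 9, which gave 19 probe sets of 31042 that were not controls. The cells were RT4D6, an established rat line grown from a Schwannoma, a tumour of the glial cells of peripheral nerves. The labels describe it as expressing Sox10, p75, GFAP and S100. They had been treated for 48 h with an siRNA against the transcription factor Sox10, either the wild type form, specific for Sox10, on 2 arrays, or a mutant form that served as the control, on 2 arrays. All 4 arrays come from this single line, so that the values hold for it alone. The question of the comparison is which genes fall when Sox10 is lowered.

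Neurotrophins are secreted growth factors made as larger precursors. They signal through Trk receptor kinases, Ntrk2 (TrkB, the receptor of Bdnf) and Ntrk3 (TrkC) among them, and through Ngfr, the p75 receptor, which binds all neurotrophins and, together with sortilin (Sort1), binds their precursors. Gdnf and its relatives bind a GFR alpha subunit on the cell surface, Gfra1 or Gfra2, and this complex activates the receptor kinase Ret or can act without it. Ngfr is a classical surface marker of immature, non-myelinating and injured Schwann cells, in which Gdnf, Bdnf and Gfra1 are also known to be induced after nerve injury.

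Values are MAS5 signals, a brightness per probe set on a linear scale that the authors had already scaled between arrays. The array medians lay between 101 and 110 and the 25th percentiles between 26.2 and 31.0, and signals near or under the latter are treated here as close to background. For the test, log2 signals were expressed relative to the median of their array. A filter kept the 16125 probe sets that reached that median on 2 or more arrays, and limma compared the groups. Calls were made where the p adjusted by Benjamini and Hochberg's method was under 0.05. Log2 fold changes give the wild type siRNA relative to the mutant siRNA, with their standard error (SE), and are negative where the wild type siRNA gave less. Their median over the tested probe sets was 0.13, while tests and intervals were set against no change. With 2 arrays a group precision is low, and limma steadies the variance of each probe set with that of others of like brightness. P-values rest on this shared variance as well as on the spread between these cultures, and reach no further than these cultures.

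Sox10 had signals of 163 and 335 under wild type siRNA, against 2873 and 2890 under mutant siRNA, so that the groups did not overlap (log2 fold change -3.54, 95% confidence interval -4.30 to -2.78, adjusted p = 0.00130 from limma). All 4 tested probe sets of a list of Schwann cell and glial markers were lower (Sox10, S100b, Gfap and Erbb3). That of Erbb3 passed the filter through the mutant siRNA arrays alone. Sox10 is the target of the siRNA, and the study had selected Sox10 and Erbb3 as lower on these arrays. Neither is thus independent evidence. The summed signal of the 8 probe sets on the list was 1047 and 1359 under wild type siRNA, against 11111 and 7582 under mutant siRNA. Most of it came from S100b (575 and 846 against 6808 and 3686) and Sox10. Of 5 tested probe sets of smooth muscle markers, 2 were higher, those of Acta2 and Tagln. The other 3 did not pass, Myh11 at a log2 fold change of 1.37 and Smtn at -0.84 and -0.47 (adjusted p = 0.137, 0.0633 and 0.448). That of Myh11 passed the filter through the wild type siRNA arrays alone, which favours a higher value. Des, too dim to test, had 30.6 and 53.3 against 62.8 and 96.6. The summed signal of the 8 probe sets on that list was 23950 and 28785 against 6750 and 11347, most of it from Tagln (21242 and 22657 against 5482 and 9015). Of the neuronal markers 8 of 9 probe sets were below the array median on all 4 arrays, as were 6 of 7 for macrophages, 6 of 8 for fibroblasts, 3 of 6 for melanocytes and 4 of 4 for endothelium. No probe set of these 5 lists was called, and no marker was at 0. These marker shifts move with every change given here, and their part in it was not tested. The study's authors had earlier reported an apparent change of this line into smooth muscle cells under a Sox10 siRNA. They described lower GFAP and p75 and higher smooth muscle actin there. Whether cells changed type was not tested here. In RNA of whole cultures, fewer cells of a type and less RNA per cell cannot be told apart.

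Of the 19 probe sets, 7 passed the filter, and they belong to 4 genes, all of them receptors (Ngfr, Sort1, Gfra1 and Gfra2). Of these 7, 5 were lower under wild type siRNA, 1 was higher and 1 did not pass the test. Over all probe sets tested, 12.1% were lower and 14.6% were higher, 26.7% in either direction. The median log2 fold change of the 7 was -1.99, beside 0.13 over all tested. Probe sets of Ngfr, Sort1 and Gfra2 among those lower had been selected by the study as lower on these arrays. The genes were also chosen with earlier results of these arrays known. Gfra2 1375359_at, also lower, passed the filter through the mutant siRNA arrays alone. The counts and the median are thus no independent evidence on these genes as a group. The other 12 probe sets, those of Ntrk2, Ntrk3, Bdnf, Gdnf and Ret, were too dim to test. The largest fall was that of Ngfr, and the single rise was that of a probe set of Sort1, a gene whose other probe set fell.

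**Figure D1:**
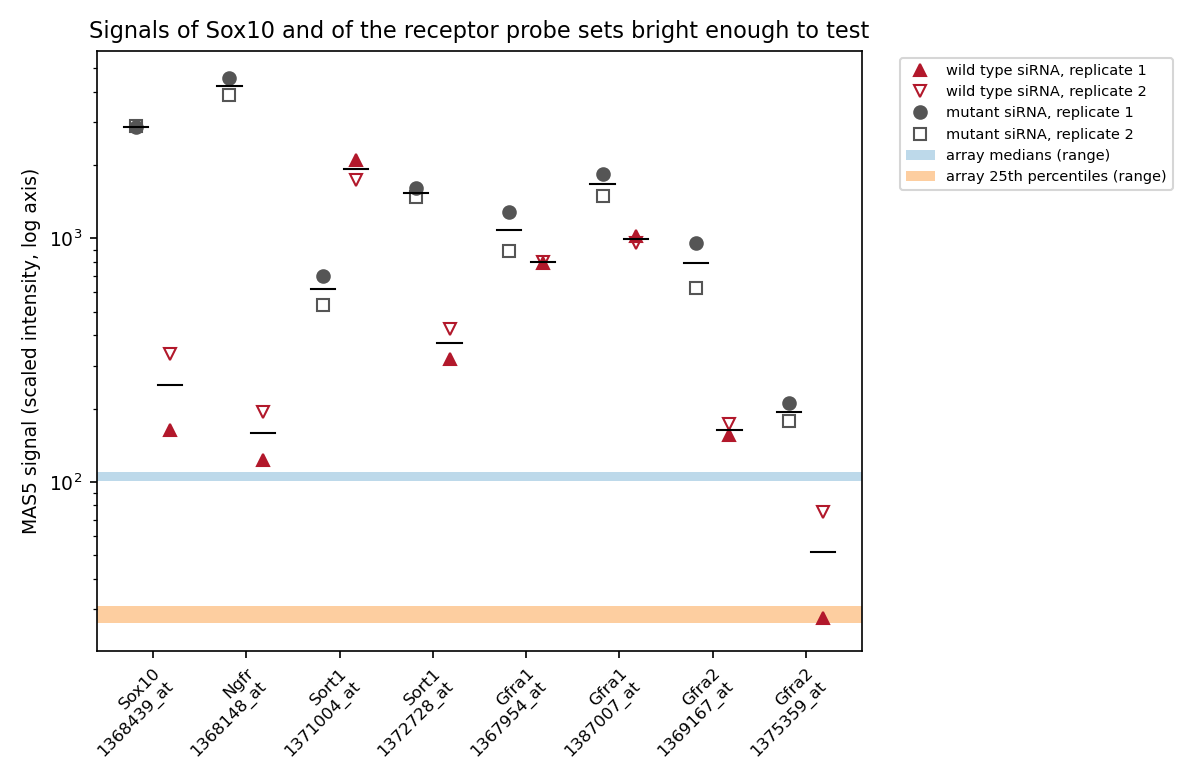
MAS5 signal on a log axis of Sox10 and of the 7 tested probe sets of Ngfr, Sort1, Gfra1 and Gfra2 on each of the 4 arrays. Grey symbols are the mutant siRNA arrays, red symbols the wild type siRNA arrays and short lines the mean of each group of 2. The blue band spans the array medians and the orange band the 25th percentiles. Sort1 1371004_at alone is brighter under wild type siRNA. Gfra1 1367954_at did not pass the test, though its groups do not overlap. How often groups do not overlap over all tested probe sets was not counted, so that nothing is read from it here.

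Ngfr, the p75 neurotrophin receptor, had a single probe set, 1368148_at, which the study had itself selected as lower on these arrays, so that its direction is not independent evidence. Its signals were 122 and 194 under wild type siRNA, against 4557 and 3874 under mutant siRNA. Both wild type siRNA signals lay far below both mutant siRNA signals, yet still above the median of their arrays. The log2 fold change was -4.69 (SE 0.27, 95% confidence interval -5.31 to -4.06, adjusted p = 0.000339), a 25.8-fold decrease. It was -5.18 between the replicate 1 arrays and -4.19 between the replicate 2 arrays. Sox10 itself also differed more in replicate 1 (-4.10) than in replicate 2 (-2.98). So did every other receptor probe set called lower, and this order is thus not particular to Ngfr. The interval of Ngfr reached down past that of Sox10, with an overlap between -4.30 and -4.06. The study also measured Ngfr by RT-PCR and reports it as clearly lower under the wild type siRNA, in data that were not analysed here. Its primers, listed with the study, are shown because they fix which transcript was followed there:

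Ngfr sense primer: caccggagggagagaaactg

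Ngfr antisense primer: acctcctcacgcttggtcag

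The tested probe sets with the profile most like that of Ngfr were chosen by the root mean square difference of log2 signals over the 4 arrays, each profile centred on its own mean. They belonged to Enpep, a cell surface aminopeptidase (difference 0.47), Ajap1, a junction-associated membrane protein (0.48), and Erbb3, the neuregulin receptor (0.49). Enpep had signals of 107 and 216 under wild type siRNA, against 2809 and 1840 under mutant siRNA. Ajap1 went from 899 and 802 under mutant siRNA to 11 and 26.6 under wild type siRNA, the first of which is under the 25th percentile of its array. Erbb3 went from 674 and 438 to 35 and 32.6. The probe sets of Ajap1 and Erbb3 passed the filter through the mutant siRNA arrays alone. With 4 arrays in 2 groups this likeness says little beyond the size of the fall and the way it varied between replicates.

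Sort1 encodes sortilin, a sorting receptor that carries cargo between Golgi, endosomes and the cell surface and acts as a co-receptor of p75 for neurotrophin precursors. Its 2 probe sets moved in opposite directions. Probe set 1372728_at, which is likewise among those the study selected, had signals of 319 and 423 under wild type siRNA, against 1607 and 1477 under mutant siRNA. The groups did not overlap, and the log2 fold change was -1.99 (SE 0.23, adjusted p = 0.00209), with -2.30 and -1.68 in replicates 1 and 2. Probe set 1371004_at had signals of 2106 and 1742 under wild type siRNA, against 702 and 535 under mutant siRNA. Here both wild type siRNA signals lay above both mutant siRNA signals. The log2 fold change was 1.72 (SE 0.22, adjusted p = 0.00268), with 1.62 and 1.83 in replicates 1 and 2. The 95% confidence intervals, -2.52 to -1.45 and 1.21 to 2.23, lie on either side of 0. Both calls held with each array left out in turn. The direction for the Sort1 gene as a whole is therefore not settled by these arrays. The files do not give the part of the transcript that either probe set reads, and whether both read Sort1 transcripts was not tested. Of 2618 genes with several tested probe sets, 2.94% had calls in both directions, and of the 442 genes with several called probe sets 17.4% did.

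**Figure D2:**
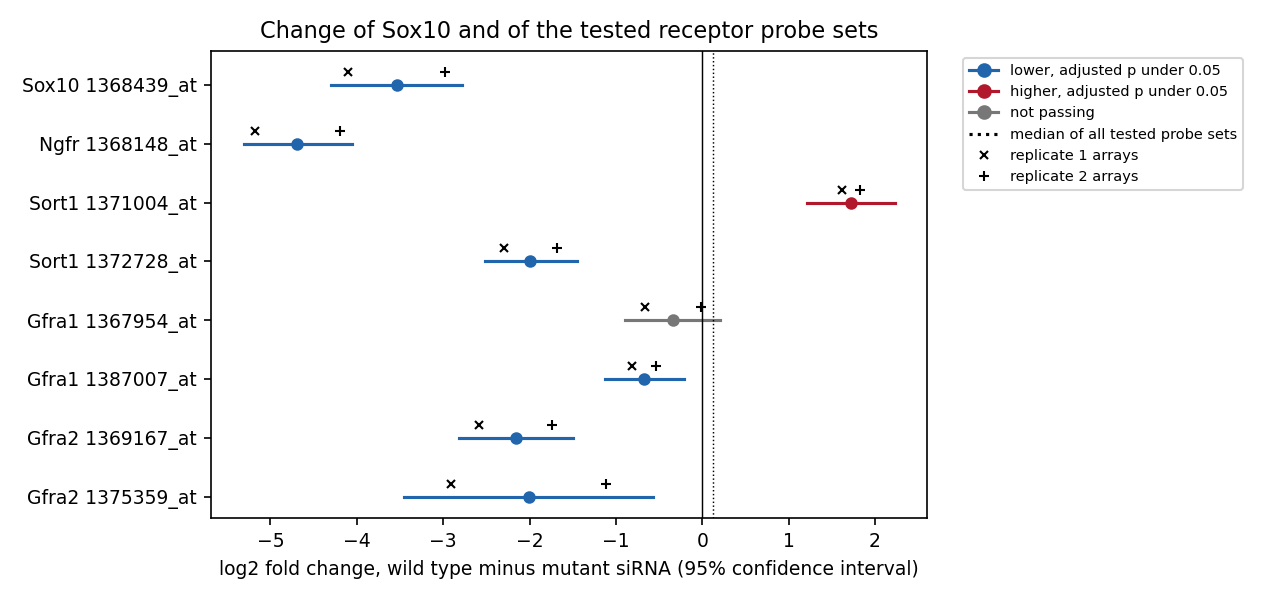
Log2 fold change (wild type relative to mutant siRNA) of Sox10 and of the 7 tested probe sets, with its 95% confidence interval as a bar. Crosses and plus signs give the difference within the replicate 1 and the replicate 2 arrays, and the dotted line the median of all tested probe sets, 0.13. The Sort1 probe sets lie at 1.72 and -1.99, and the interval of Gfra1 1367954_at takes in 0.

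Gfra2, the GFR alpha subunit known for binding the GDNF relative neurturin, was lower in both probe sets. Probe set 1369167_at, also among those the study selected on these arrays, had signals of 156 and 172 under wild type siRNA, against 958 and 625 under mutant siRNA. The groups did not overlap, the wild type siRNA arrays were alike and the mutant siRNA arrays were spread. The log2 fold change was -2.16 (SE 0.29, 95% confidence interval -2.82 to -1.50, adjusted p = 0.00279). Probe set 1375359_at was dimmer, with 27.5 and 75.3 against 211 and 178. Both wild type siRNA signals were under the median of their arrays, so that it passed the filter through the mutant siRNA arrays alone. A filter passed in this way favours a lower call, and this probe set adds little to the other. Its first wild type siRNA signal was under the 25th percentile of that array, so that the size of the change is not established. It was given as -2.01 (SE 0.63, 95% confidence interval -3.45 to -0.57, adjusted p = 0.0470). That call was lost without the replicate 1 array of the wild type siRNA (log2 fold change -1.26, adjusted p = 0.102) and without replicate 1 or 2 of the mutant siRNA (-1.87 and -2.15, adjusted p = 0.223 and 0.158), and also without a filter on low signals (adjusted p = 0.0806).

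Gfra1, the subunit that binds Gdnf itself, had smaller estimates of change. Probe set 1387007_at had signals of 1027 and 955 under wild type siRNA, against 1846 and 1499 under mutant siRNA. The groups did not overlap, and the log2 fold change was -0.67 (SE 0.20, 95% confidence interval -1.13 to -0.21, adjusted p = 0.0418), a 1.59-fold decrease. This call did not hold when any single array was left out (adjusted p = 0.0773 and 0.0732 without replicates 1 and 2 of the wild type siRNA, 0.233 and 0.0747 without those of the mutant siRNA). It was also lost with a weaker filter on low signals (adjusted p = 0.0509). Probe set 1367954_at had signals of 792 and 803 against 1281 and 886. The replicate 2 arrays differed by -0.02 in log2 fold change and the replicate 1 arrays by -0.66. With a log2 fold change of -0.34 (95% confidence interval -0.89 to 0.21, adjusted p = 0.317) it did not pass. In order of their change the tested probe sets that fell were those of Ngfr, Gfra2 1369167_at, Gfra2 1375359_at, Sort1 1372728_at and Gfra1 1387007_at. The interval of Ngfr lay apart from that of Gfra2 1369167_at, the middle 3 overlapped, and those of Gfra2 1369167_at and Gfra1 1387007_at did not. Differences between probe sets were not tested.

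The promoter table of RefSeq (rat assembly GRCr8) holds 10 transcription start sites of 5 of the 9 genes, Sort1, Gfra1, Bdnf, Gdnf and Ret. The 250 bases upstream of the start are shown for Sort1 and Gfra1, the tested genes among them, since the core element that the study searched for, ACAAT on either strand, can be looked for there. Sort1 is on chr2:198612245-198612494, plus strand, and Gfra1 on chr1:267555812-267556061, minus strand, and both are written 5′ to 3′ in the sense of the gene. Capitals mark a GC box, GGGCGG on either strand, which does not overlap a core element in them:

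Sort1 upstream sequence: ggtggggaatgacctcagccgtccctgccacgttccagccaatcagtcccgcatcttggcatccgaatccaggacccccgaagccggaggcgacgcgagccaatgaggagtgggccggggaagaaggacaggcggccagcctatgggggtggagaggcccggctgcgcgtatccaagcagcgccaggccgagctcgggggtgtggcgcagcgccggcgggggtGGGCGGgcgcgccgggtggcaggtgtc

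Gfra1 upstream sequence: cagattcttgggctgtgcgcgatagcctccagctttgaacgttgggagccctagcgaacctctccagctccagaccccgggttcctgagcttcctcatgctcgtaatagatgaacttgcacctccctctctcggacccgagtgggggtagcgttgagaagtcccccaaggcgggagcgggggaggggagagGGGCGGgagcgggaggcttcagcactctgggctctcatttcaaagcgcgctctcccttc

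The core element ACAAT was in none of the 10 windows, and 30.0% of the 33469 windows of the table hold it. Most of the 10 are of Bdnf, too dim to test, and some of those overlap. Ngfr and Gfra2 have no window, so that nothing is shown for them. The study searched a longer span that took in the first intron. It lists sites with this core element in an intron of Ngfr, examined them by chromatin immunoprecipitation, and tentatively classes Ngfr as a direct target. A GC box, searched for after the windows had been read, was present 1 time each for Sort1 and Gfra1, and 30.5% of all windows hold it. The G and C content was 71.6% for Sort1 and 62.0% for Gfra1. A window of this length takes in neither introns nor distant enhancers.

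The kinases and ligands were at the dim end of the arrays. Ret, the kinase that GFR alpha complexes activate, had 3 probe sets with signals between 2.0 and 40.0 on all arrays. In 1370989_at the groups did not overlap, with 25.4 and 40.0 under wild type siRNA, against 5.90 and 4.30 under mutant siRNA. Of those 4 signals 3 were under the 25th percentile of their array, and when it was tested without the filter the difference did not pass (adjusted p = 0.208 from limma). Ntrk2 had 5 probe sets, with signals between 1.80 and 86.3, and overlapping groups in each. Ntrk3 had 1 probe set, with signals of 12.3 and 9.80 under wild type siRNA and 3.20 and 71.9 under mutant siRNA. The mutant siRNA arrays differed from each other by more than the group means did. The level of the Trk and Ret kinases was thus too low on these arrays to compare the conditions.

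Bdnf and Gdnf, the ligands, had 1 probe set each that was above the array median on 1 array, and stayed below it elsewhere. Bdnf 1368677_at had signals of 119 and 73.5 under wild type siRNA, against 9.60 and 73.2 under mutant siRNA. The groups did not overlap by the narrowest of margins, and the replicate 2 arrays were alike. Bdnf 1368678_at ran from 8.0 to 88.6 with overlapping groups. Gdnf had 121 and 49.9 under wild type siRNA, against 24.8 and 101 under mutant siRNA. The replicates differed in direction. Of the 12 dim probe sets, those of Ret 1370989_at and Bdnf 1368677_at were the 2 whose groups did not overlap, both higher under wild type siRNA. Among all 14917 probe sets too dim to test, 35.6% had groups that did not overlap, 15.8% with higher and 19.7% with lower signals under wild type siRNA. Without the filter none of the 12 passed the test.

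**Figure D3:**
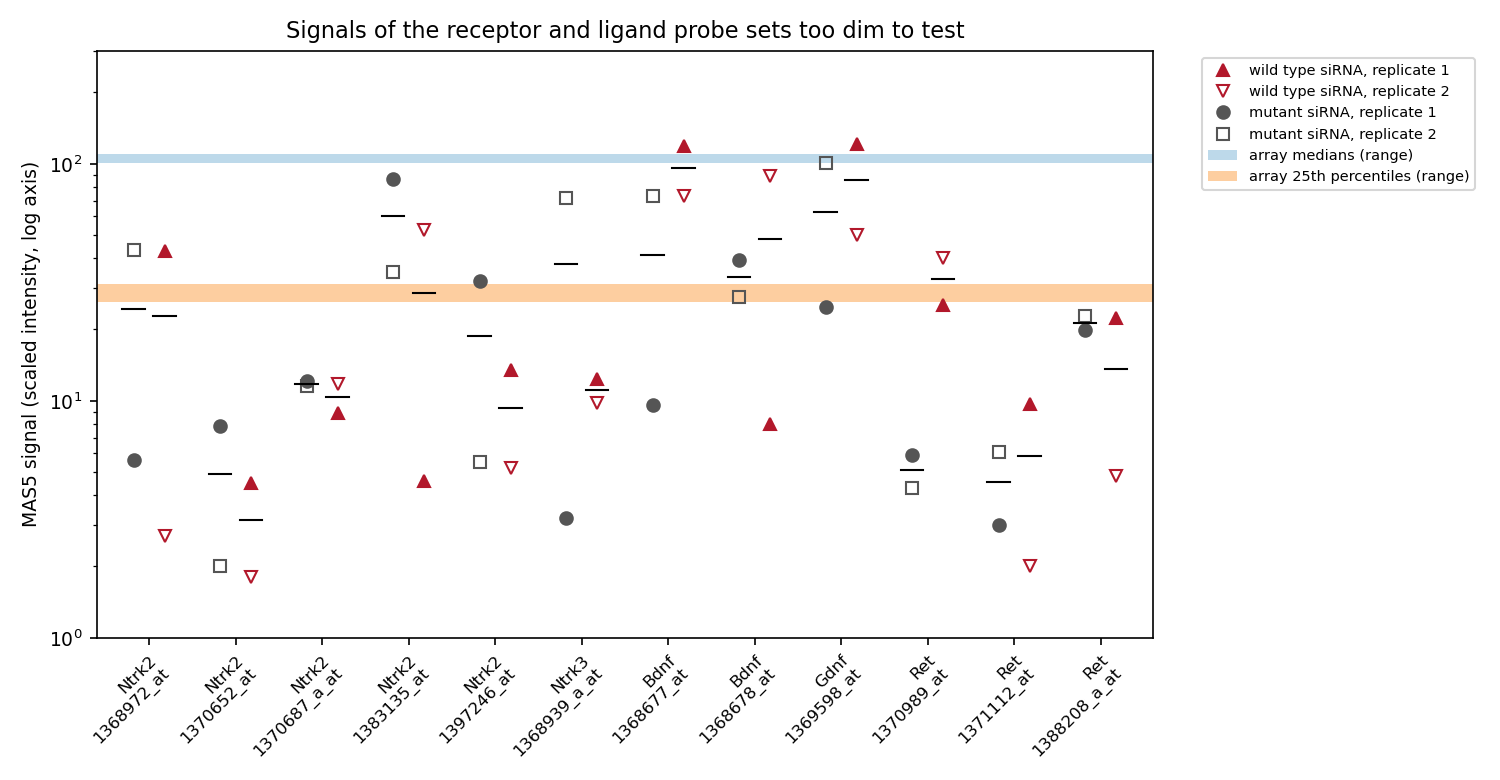
Signals (MAS5, log axis) for the 12 probe sets of Ntrk2, Ntrk3, Bdnf, Gdnf and Ret that were too dim to test, on each of the 4 arrays, with the symbols and bands of the plot of the bright probe sets. Nearly all signals lie under the array medians, and those of Ret between 2.0 and 40.0.

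Other genes of these pathways were taken from 4 lists with 70 genes, of which 61 had a probe set under a single symbol and 41 had one that was bright enough to test. With the brightest probe set standing for each gene, 6 were lower, 11 were higher and 24 did not pass. In probe sets, 8 of 64 were lower and 14 were higher, with a median log2 fold change of 0.38, beside 0.13 over all tested. Over all probe sets tested 12.1% were lower and 14.6% higher, which is the background for these counts and for those of the single lists. Among other ligands and receptors (12 genes), 3 could be tested and none of their 7 probe sets passed (limma). These were Pspn, a GDNF relative, and the cell surface molecules Ncam1 and Sdc3, both of which can bind Gdnf, at log2 fold changes of -0.03, 0.16 and -0.05 in their brightest probe sets. The others of Ncam1 were at 0.57 and 0.72 (adjusted p = 0.177 and 0.480) and those of Sdc3 at -1.58 and 0.36 (0.124 and 0.402). In Sdc3 1368580_at the groups did not overlap, with 26.7 and 65.8 under wild type siRNA, against 134 and 131. That probe set passed the filter through the mutant siRNA arrays alone, which favours a lower value. Its signal of 26.7 was under the 25th percentile of that array. Without replicate 2 of the wild type siRNA its log2 fold change was -2.26. Ncam1 1368320_at was at 1.02 without replicate 1 of the wild type siRNA.

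In the list of the sortilin family and of proteins that work with p75, 4 of 17 tested genes were lower and 6 were higher. Tnfrsf19 (TROY), a relative of p75 that can take its place in the Nogo receptor complex, had signals of 60.4 and 143 under wild type siRNA, against 471 and 588. Its log2 fold change was -2.42 (SE 0.43, adjusted p = 0.00710). Rtn4r, the Nogo receptor, was at -2.04 (SE 0.35, adjusted p = 0.00592) in its brightest probe set, one that the study selected on these arrays, and at -0.90 and -0.77 in others that did not pass (adjusted p = 0.100 and 0.136). Sorcs2, a sortilin relative that also pairs with p75, was at -1.43 (SE 0.28, adjusted p = 0.00910), with 302 and 292 against 1072 and 670. Traf4, an adaptor of TNF receptors, was at -1.0 (adjusted p = 0.0233).

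Among the higher genes of that list, Psen2, Psenen and Aph1a are subunits of gamma-secretase, the protease that cuts p75 within the membrane, and they were at 1.43, 0.97 and 0.74 (adjusted p = 0.00929, 0.0112 and 0.0259). Psen2 had signals of 414 and 369 under wild type siRNA, against 160 and 147. Ncstn, a further subunit, was at 0.42 and 0.15 in separate probe sets and did not pass (adjusted p = 0.153 and 0.681), and is named after its values were seen. Nradd, a death domain protein that resembles p75, was higher in all 3 of its probe sets, at 0.92, 0.80 and 1.01. Ripk2, a kinase that binds the death domain of p75, was at 1.30 (adjusted p = 0.0151). Bex3, which binds the intracellular part of p75, was at 0.57 (adjusted p = 0.0468) in its brightest probe set. Its other probe set, 1385534_at, was at 0.06 with overlapping groups and did not pass (adjusted p = 0.917).

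Of 16 tested adaptors of Trk and Ret kinases, 1 was lower and 5 were higher. Sh2b3, an adaptor known for damping kinase signals, rose from 473 and 518 to 1696 and 1251, a log2 fold change of 1.64 (SE 0.22, adjusted p = 0.00279). Shc3, a neural Shc adaptor, was also at 1.64, with more spread (SE 0.42, adjusted p = 0.0241). Its mutant siRNA signals, 90.2 and 105.7, were under the median of their arrays. It thus passed the filter through the wild type siRNA arrays alone, which favours a higher call. Grb2 and Sos1, which link receptor kinases to Ras, were at 1.36 and 1.03 (adjusted p = 0.00230 and 0.00926), though Grb2 fell in another probe set. Crkl, a Crk family adaptor, was at 1.31 (adjusted p = 0.00752). The docking protein Dok1 was at -0.79 (adjusted p = 0.0426). Among genes of precursor processing 1 of 5 tested was lower, Plat, the tissue plasminogen activator, which starts the plasmin cascade that can cut neurotrophin precursors. It went from 14240 and 13578 to 2701 and 4747, a log2 fold change of -1.88 (SE 0.26, adjusted p = 0.00296).

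Of these 17 calls, 5 held with each array left out in turn, those of Psen2, Grb2, Sh2b3, Crkl and Plat. Without replicate 1 of the mutant siRNA, Sorcs2, Ripk2 and Sos1 no longer passed (adjusted p = 0.0644, 0.0838 and 0.0576), and without its replicate 2, Rtn4r, Tnfrsf19 and Psenen did not (0.0503, 0.0514 and 0.0682). Nradd was lost without either mutant siRNA array (0.0917 and 0.0796). Traf4, Aph1a, Shc3 and Dok1 were lost without replicate 1 of the wild type siRNA (0.0818, 0.0915, 0.172 and 0.154), without replicate 1 of the mutant siRNA (0.0889, 0.0746, 0.0861 and 0.197) and without its replicate 2 (0.110, 0.136, 0.0683 and 0.110). Bex3 was lost without any of the 4 arrays (0.0744 to 0.188), and also without further scaling (adjusted p = 0.0785) and with quantile scaling (0.0901). Each such fit assumes that the lone array of a group varies like the other group.

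**Figure D4:**
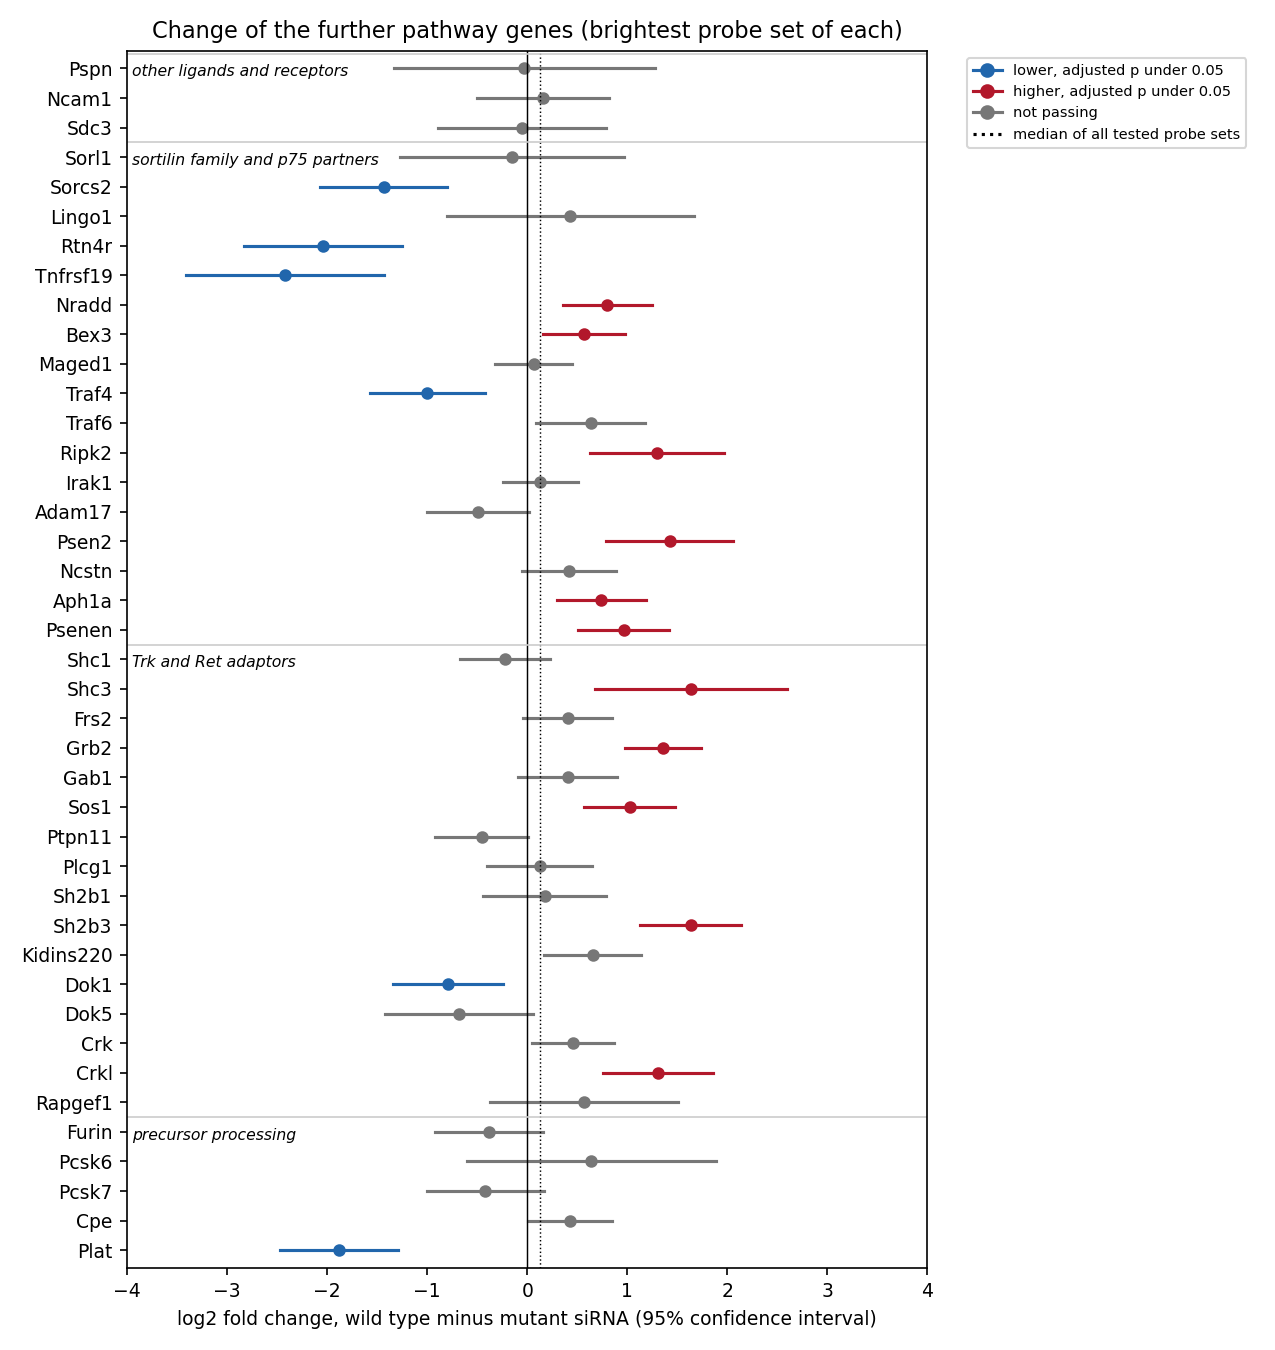
Log2 fold change (wild type relative to mutant siRNA) with its 95% confidence interval for the 41 tested genes of the 4 further lists, each by its brightest probe set. Blue genes were lower, red genes higher and grey genes did not pass at an adjusted p under 0.05, and the dotted line is the median of all tested probe sets. Tnfrsf19, Rtn4r and Plat lie lowest, at -2.42, -2.04 and -1.88.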

How the data were processed

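RT4D6 RNA was hybridised to 4 Affymetrix rat arrays of a single colour, 2 for each siRNA, grouped by the sample titles. The authors deposited intensity values, the linear MAS5 signal of every probe set, scaled between arrays (the submitters' processing notes name MAS5, with no version). The detection calls, median normalization and filters of the study are not in these values. Of 31099 probe sets, 57 controls were left out. Symbols came from the platform annotation, where 20826 probe sets have 1 symbol, 436 several and 9780 none. Log2 signals, with no pseudocount, were centred on the array median, and probe sets that reached it on 2 or more arrays went into limma 3.58.1 (R 4.3.3; lmFit, then eBayes with trend, and no covariate). The script was tested on simulated data. Each group holds 2 cultures. The study describes 2 sets of paired cells, taken as the replicate numbers, and arrays of the same number deviated from their groups with a correlation of 0.141, so a fit with a replicate block was an alternative. Others were scaling, treatment of low signals, filters, variance models, the methods' t-test and each array left out. The genes and lists were chosen with earlier results of these arrays known. All 9 genes, Sox10, the 3 tested probe sets with the profile nearest to that of Ngfr, and of each list the up to 6 called genes with the largest change in each direction were named. Other list genes were named where a count was 5 or less, or, as stated there, after their values were seen. Tables and figures used Python 3.11.15 with pandas 2.3.3 and matplotlib 3.10.9. RT-PCR and chromatin assays of the study were not analysed here.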

Additional observations from a re-analysis of the deposited data

How the results depend on the processing

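No tested probe set of the 9 genes, and not that of Sox10, changed direction under any alternative. Of their refits, 92 kept their side of the threshold and 20 lost the call, of which 15 were of Gfra1 1387007_at or Gfra2 1375359_at. Ngfr, both Sort1 probe sets and Gfra2 1369167_at passed under every alternative except the methods' t-test with Benjamini-Hochberg adjustment. That version called 0 of the receptor probe sets in either direction, 0 of the further pathway probe sets in either direction, and 0 lower and 2 higher over all probe sets. Without adjustment the same test called 3 receptor probe sets lower and 1 higher, 2 further pathway probe sets lower and 17 higher, and 1386 and 2444 over all. Without the intensity trend in limma, 3 receptor probe sets were lower, 5 further pathway probe sets were lower and 8 higher, and 1187 were lower and 1177 higher over all. With the replicate block no call of the 9 genes changed, the further pathway lists held 9 lower and 19 higher, and 2580 were lower and 3308 higher over all. With each array left out in turn, which leaves fewer samples, the receptor probe sets called lower numbered 3 to 4 and those higher 1 to 1, the further pathway probe sets 2 to 10 lower and 6 to 13 higher, and all probe sets 706 to 2519 lower and 924 to 2128 higher. Scaling moved the median log2 fold change of the tested probe sets from 0.13 to 0.05 (no further scaling) or 0.08 (quantile). Low brightness limits what can be said of Ret, Ntrk2, Ntrk3, Bdnf and Gdnf.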

Other observations

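Of 8 adaptor genes with several tested probe sets, 5 had log2 fold changes of the same sign in all of them and 3 did not, and 1, Grb2, had calls in both directions as Sort1 did. Grb2 1368385_a_at had signals of 4607 and 4259 under wild type siRNA, against 1754 and 1900 under mutant siRNA, a log2 fold change of 1.36 (adjusted p = 0.00230 from limma). Grb2 1368386_at had 724 and 812 against 1313 and 1454, at -0.77 (adjusted p = 0.0254). The second call was lost without replicate 1 of the wild type siRNA (adjusted p = 0.0821) and without replicate 1 or 2 of the mutant siRNA (0.0904 and 0.131). Ptpn11, the phosphatase SHP2, was at 1.03 in 1387668_at (adjusted p = 0.0261, lost without any of the 4 arrays, 0.0543 to 0.106) and at -0.45 in 1388379_at (adjusted p = 0.130). Crk was at -1.36 in 1374536_at (adjusted p = 0.0110, and 0.0684 without replicate 2 of the mutant siRNA) and at 0.47 and 0.46 in others that did not pass. These genes were named after their values were seen, and what the probe sets read was not tested.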
